A study of Mus musculus with 12 samples.

Results

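Drd1, Drd2, Adora2a, Ppp1r1b, Adcy5, Gnal, Pde10a, Pde1b and Rgs9 are 9 genes of dopamine, adenosine and cAMP signalling in striatal projection neurons. They were taken as the rows of the deposited table whose single platform gene symbol was one of these names, which gave 8 genes of the 19938 with such a row. Adora2a was not analysed here. Each of the 8 had 1 probe set, and all 8 were among the 16721 genes that passed the filter on dim signals. RNA of the striatum was measured with Affymetrix whole-transcript arrays in male mice at 90 days of age, in 4 groups of 3 arrays. The groups were homozygous HdhQ111/Q111 mice with mGluR5-/-, HdhQ111/Q111 mice with mGluR5+/+, HdhQ20/Q20 mice with mGluR5-/-, and HdhQ20/Q20 mice with mGluR5+/+, all on a mixed background of 129, CD-1, C57BL/6 and FV. Hdh is an older name of Htt, the huntingtin gene. Every group thus carried a knock-in Htt allele, the expanded Q111 or the short Q20, and no group had unmodified Htt. mGluR5 is the metabotropic glutamate receptor encoded by Grm5, and the labels do not say how its gene was inactivated. Nor do they say if each array stands for its own animal, and p-values therefore measure only how far these samples spread, which may be technical.

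In the striatum, dopamine and adenosine act through cAMP. The dopamine receptor encoded by Drd1 couples to the stimulatory G protein Golf (alpha subunit Gnal) in direct-pathway neurons. In indirect-pathway neurons the receptor encoded by Drd2 couples to inhibitory G proteins, while the adenosine receptor encoded by Adora2a couples to Golf. In each of these neuron types the receptors act on the adenylyl cyclase Adcy5, whose product activates protein kinase A. Ppp1r1b encodes DARPP-32, a protein that inhibits protein phosphatase 1 once protein kinase A has phosphorylated it. The phosphodiesterases Pde10a and Pde1b degrade cyclic nucleotides, and Rgs9 speeds the shut-off of G proteins of the inhibitory class. Several of these RNAs are known to be low in the striatum of Huntington's disease patients and of mouse models at later stages.

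Reference promoters were available for 6 of the genes, Drd1, Drd2, Adcy5, Pde10a, Pde1b and Rgs9, with 10 annotated starts in all (RefSeq, GRCm38.p6, 250 bases before to 50 after the start). The cAMP response element in its full form, TGACG followed by TCA, was found in none of the 10, against 1.79% of 32851 mouse promoters of the same length. Its shorter form TGACG was found in none either, against 20.8% of all promoters. The Sp1 box GGGCGG was found in 8 of the 10 and in at least 1 start of each of the 6 genes, against 35.7% of all promoters. Both strands were searched, and the shorter form lies within the full one. GC content lay between 44.0% and 79.0%, and it was above the median of all promoters (52.7%) in 8 of the 10. These matches describe letters in a window and were not set against the expression data. Promoters of both dopamine receptors and of the cyclase Adcy5 are shown, with each Sp1 box (GGGCGG, or CCGCCC on the other strand) in capitals. For Drd1 only 1 of its annotated starts is shown.
Drd1, chr13:54055609-54055908, minus strand: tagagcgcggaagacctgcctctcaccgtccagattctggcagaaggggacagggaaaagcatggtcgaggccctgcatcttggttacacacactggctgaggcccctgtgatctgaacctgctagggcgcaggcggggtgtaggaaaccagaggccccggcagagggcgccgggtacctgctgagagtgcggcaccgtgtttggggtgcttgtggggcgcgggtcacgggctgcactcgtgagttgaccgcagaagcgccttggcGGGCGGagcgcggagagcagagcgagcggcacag
Drd2, chr9:49340153-49340452, plus strand: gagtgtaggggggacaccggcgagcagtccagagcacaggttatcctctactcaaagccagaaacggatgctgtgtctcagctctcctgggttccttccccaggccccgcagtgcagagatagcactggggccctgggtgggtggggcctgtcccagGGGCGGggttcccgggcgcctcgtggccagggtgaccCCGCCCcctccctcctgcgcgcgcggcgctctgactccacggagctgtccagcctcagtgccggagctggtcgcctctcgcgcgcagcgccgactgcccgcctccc
Adcy5, chr16:35154614-35154913, plus strand: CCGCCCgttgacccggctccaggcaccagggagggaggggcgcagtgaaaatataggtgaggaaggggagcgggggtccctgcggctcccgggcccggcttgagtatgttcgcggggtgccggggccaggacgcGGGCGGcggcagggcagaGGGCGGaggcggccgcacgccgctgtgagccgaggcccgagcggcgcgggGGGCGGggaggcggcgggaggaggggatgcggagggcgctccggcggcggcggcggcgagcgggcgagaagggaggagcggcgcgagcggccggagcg

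Values are log2 signals, so that 1 unit is a 2-fold difference. Array medians lay between 7.05 and 7.16, and the interquartile range of an array, the width of the middle of its values, lay between 2.56 and 2.95. Grm5 averaged 11.07 ± 0.08 in Q111 mice without mGluR5 against 11.94 ± 0.08 in Q111 mice with it, and 11.06 ± 0.12 in Q20 mice without mGluR5 against 12.00 ± 0.07 in Q20 mice with it (SD, n = 3 each). The Q111 and Q20 arrays thus followed their mGluR5 labels without overlap. Htt averaged 9.77 ± 0.06 in Q111 mice without mGluR5, 9.78 ± 0.06 in Q111 mice with it, 9.91 ± 0.02 in Q20 mice without mGluR5 and 9.94 ± 0.09 in Q20 mice with it. The average difference of -0.15 ± 0.06 for Q111 (SE) did not pass (limma unadjusted p = 0.0241, adjusted p = 0.344). All Q111 arrays nevertheless read lower for Htt than all Q20 arrays, at most 9.84 against at least 9.86. Of all tested genes 1.21% had no overlap in that comparison. Of 12 fixed markers of striatal projection neurons, such as Penk and Tac1, all lay above the 25th percentile of every array, and 7 above the 75th. Of 7 measured markers of cortical projection neurons 4 lay above the 25th percentile of every array and none above the 75th of every array. Of 6 choroid plexus markers 5 and none did. The choroid plexus marker Ttr did exceed the 75th percentile on replicate 2 of Q20 mice without mGluR5 (9.28 against 8.64). None of the 8 genes lies on the chromosome of a targeted gene, 5 for Htt and 7 for Grm5. They lie on chromosomes 9 (Drd2), 11 (Ppp1r1b and Rgs9), 13 (Drd1), 15 (Pde1b), 16 (Adcy5), 17 (Pde10a) and 18 (Gnal). In tissue RNA, fewer cells of a type and less RNA per cell cannot be told apart.

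The main result across the 4 genotypes is that none of the 8 RNAs passed the test in any comparison, and that each difference was small. There were 7 comparisons: Q111 against Q20 mice with mGluR5, the same without mGluR5, absence of mGluR5 against its presence in Q20 mice, the same in Q111 mice, the interaction of both factors, and the average effect of each factor. Every one of the 56 confidence intervals (8 genes in 7 comparisons, 95%) lay inside a 1.5-fold change in either direction. In the 4 simple comparisons the intervals reached from 0.821-fold to 1.24-fold. With limma, 0 of 8 genes had an adjusted p below 0.05 and 0 an unadjusted p below 0.05 in each comparison. An ordinary linear model also gave 0 at an unadjusted p below 0.05.

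**Figure D1:**
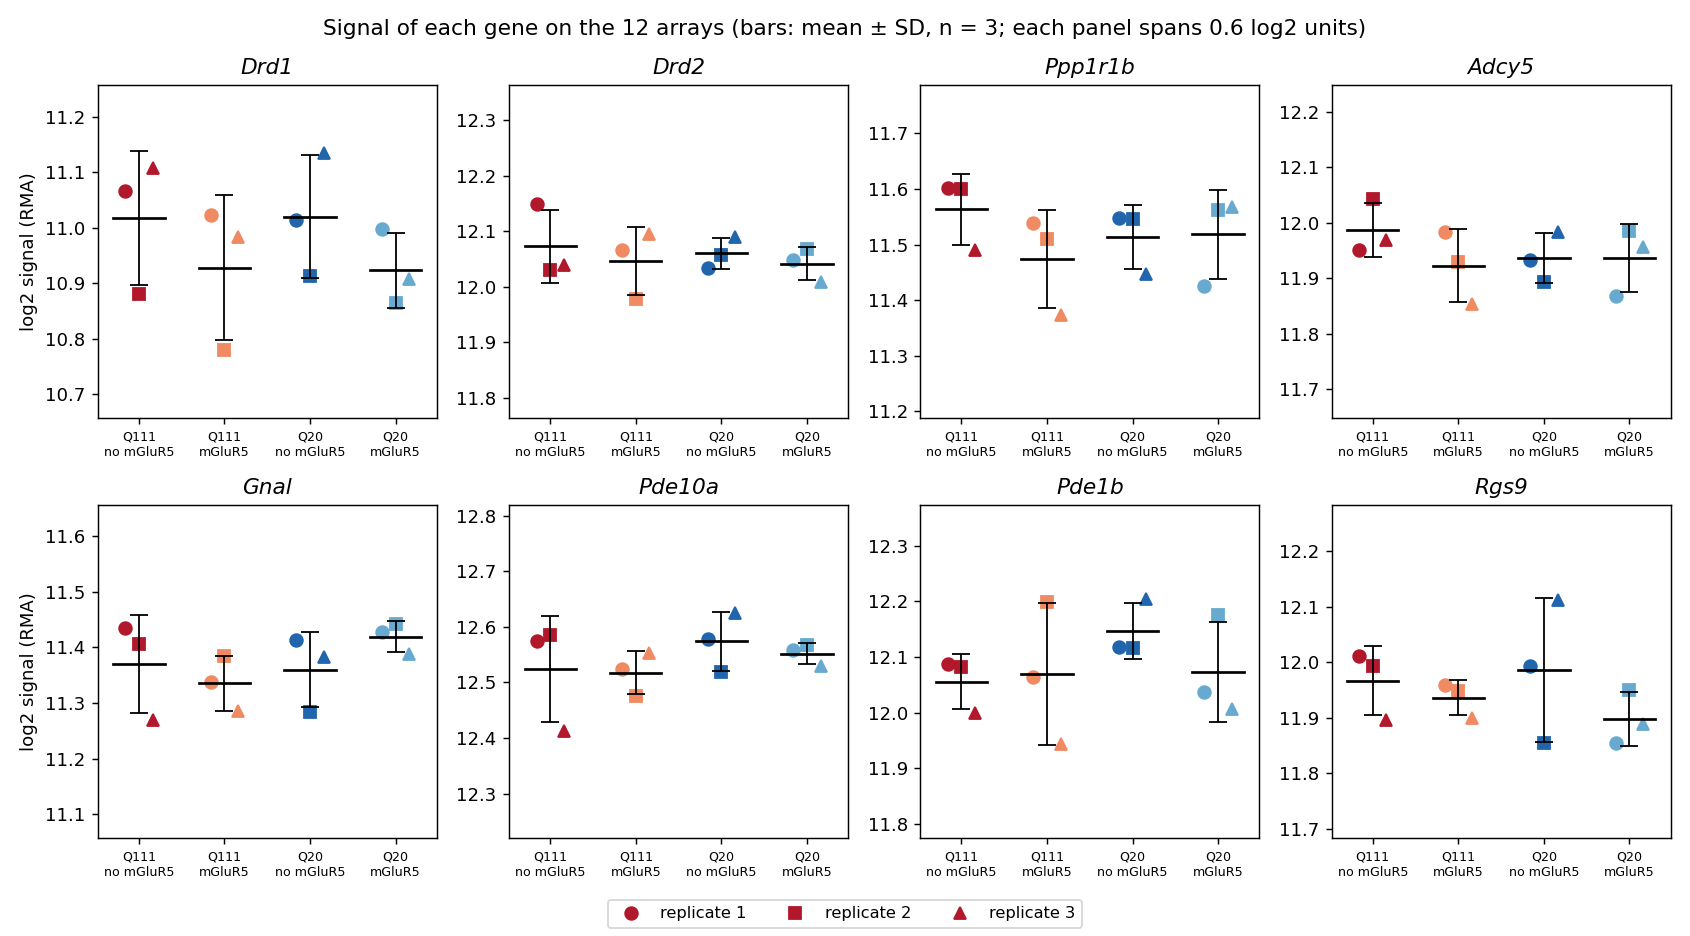
Log2 signal (vertical axis, 0.6 units in every panel) of each of the 8 genes on the 12 arrays, by genotype group, with circles, squares and triangles for replicates 1, 2 and 3 and bars for the mean ± SD (n = 3). In all 8 panels group means differ by at most 0.10, and most groups overlap.

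Drd1, the receptor of direct-pathway neurons, read 11.07, 10.88 and 11.11 in Q111 mice without mGluR5 and 11.02, 10.78 and 10.98 in Q111 mice with it. In Q20 mice it read 11.01, 10.91 and 11.13 without mGluR5 and 10.9975, 10.87 and 10.91 with it. All 4 groups overlapped, and in each of them the array with the widest interquartile range, replicate 2, held the lowest value. By mean the order was Q20 without, Q111 without, Q111 with and Q20 with mGluR5, and no neighbours in it differed beyond their spread. The mean of both groups lacking mGluR5 was 1.07 times that of both groups with it (interval 0.961 to 1.18), with a limma unadjusted p = 0.209 and adjusted p = 1. Between Q111 and Q20 mice the fold was 1.001 on average (0.902 to 1.11).

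Drd2, the receptor of indirect-pathway neurons, was the steadiest of the 8, with 0.17 log2 units between its lowest and highest array. It read 12.15, 12.03 and 12.04 in Q111 mice without mGluR5 and 12.07, 11.98 and 12.09 in Q111 mice with it. Its Q20 values were 12.03, 12.06 and 12.09 without mGluR5 and 12.05, 12.07 and 12.01 with it. All 4 groups overlapped, and their means lay within 0.03 of each other. The Q111 allele gave a fold of 1.003 with mGluR5 (0.890 to 1.13) and of 1.01 without it (0.895 to 1.14), with limma adjusted p = 0.999 and 0.981. Loss of mGluR5 gave 1.01 in Q20 mice (0.899 to 1.14) and 1.02 in Q111 mice (0.904 to 1.15).

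Gnal, the alpha subunit of Golf, read 11.44, 11.41 and 11.27 in Q111 mice without mGluR5 and 11.34, 11.38 and 11.29 in Q111 mice with it. The Q20 arrays read 11.41, 11.28 and 11.38 without mGluR5 and 11.43, 11.44 and 11.39 with it. With mGluR5 present, the 3 Q111 arrays all lay below the 3 Q20 arrays, by a gap under 0.01. The difference was -0.08 ± 0.08 log2 units (SE), a fold of 0.943 (0.833 to 1.07), and did not pass (limma adjusted p = 0.972). Groups that do not overlap in this way were found for 1 of the 8 genes in this comparison, against 9.69% of all tested genes. Without mGluR5 the Q111 and Q20 arrays of Gnal overlapped, with a fold of 1.01 (0.889 to 1.14), and the difference between both effects was 0.09 ± 0.12 (limma adjusted p = 1).

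Adcy5, the cyclase of both neuron types, read 11.95, 12.04 and 11.97 in Q111 mice without mGluR5 and 11.98, 11.93 and 11.85 in Q111 mice with it. Among Q20 mice the values were 11.93, 11.89 and 11.98 without mGluR5 and 11.87, 11.98 and 11.96 with it. The groups overlapped throughout. The largest of the 4 simple differences was that of mGluR5 loss in Q111 mice, at 0.06 ± 0.08 log2 units (SE), a fold of 1.05 (0.926 to 1.18), with a limma adjusted p = 1.

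Ppp1r1b, the phosphatase inhibitor, read 11.60, 11.60 and 11.49 in Q111 mice without mGluR5 and 11.54, 11.51 and 11.37 in Q111 mice with it. Q20 mice had 11.55, 11.55 and 11.45 without mGluR5 and 11.43, 11.56 and 11.57 with it. Q111 mice without mGluR5 had the highest mean and Q111 mice with it the lowest, and their arrays overlapped. The fold between them was 1.06 (0.935 to 1.21), with limma unadjusted p = 0.321 and adjusted p = 1. The Q111 allele gave a fold of 0.970 with mGluR5 (0.853 to 1.10) and 1.04 without it (0.910 to 1.18). The difference between both effects, 0.09 ± 0.12 log2 units (SE), did not pass (limma adjusted p = 1).

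Of the phosphodiesterases, Pde10a, which degrades cAMP and cGMP and is known for its high level in striatal projection neurons, read 12.57, 12.58 and 12.41 in Q111 mice without mGluR5 and 12.52, 12.48 and 12.55 in Q111 mice with it. In Q20 mice it read 12.58, 12.52 and 12.63 without mGluR5 and 12.56, 12.57 and 12.53 with it. Q111 means were the lower ones in both mGluR5 genotypes, with overlapping arrays. The average fold for the allele was 0.971 (0.890 to 1.06), with a limma adjusted p = 0.837.

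Pde1b, which calcium and calmodulin activate, read 12.09, 12.08 and 12.00 in Q111 mice without mGluR5 and 12.06, 12.20 and 11.94 in Q111 mice with it. Its Q20 values were 12.12, 12.12 and 12.20 without mGluR5 and 12.04, 12.18 and 12.01 with it. Without mGluR5 the highest Q111 array stayed under the lowest Q20 array. That difference of -0.09 ± 0.09 log2 units (SE), a fold of 0.939 (0.821 to 1.07), did not pass (limma adjusted p = 0.825). It was again 1 of the 8 genes without overlap, where 19.1% of all tested genes had none in this comparison. With mGluR5 the Q111 and Q20 arrays overlapped, with a fold of 0.997 (0.871 to 1.14). Without mGluR5, the mean levels of 4 of 8 marker lists were also lower in Q111 mice with no overlap. The 12 striatal projection neuron markers averaged 10.15 to 10.27 in Q111 mice against 10.28 to 10.38 in Q20 mice, but single markers went both ways. Tac1, Pdyn, Meis2, Isl1, Ebf1 and Gad2 had lower means in Q111 mice, and Penk, Foxp1, Bcl11b, Sp9, Six3 and Gad1 higher ones. The 7 vascular markers averaged 7.93 to 8.09 in Q111 mice against 8.24 to 8.28 in Q20 mice. The 5 microglia markers averaged 8.15 to 8.21 in Q111 mice against 8.23 to 8.42 in Q20 mice, though Tmem119 had a higher mean in Q111 mice. The 6 choroid plexus markers averaged 6.28 to 6.42 in Q111 mice against 6.45 to 6.85 in Q20 mice. Their widest gap was that of Ttr, at 6.66 in Q111 against 8.15 in Q20 mice, with 9.28 on replicate 2 of the latter. Folr1 and Kcne2 of that list had higher means in Q111 mice. The part of these marker levels in the Pde1b values was not tested.

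Rgs9, the regulator of inhibitory G proteins, read 12.01, 11.99 and 11.90 in Q111 mice without mGluR5 and 11.96, 11.95 and 11.90 in Q111 mice with it. The Q20 arrays read 11.99, 11.85 and 12.11 without mGluR5 and 11.86, 11.95 and 11.89 with it. The means lacking mGluR5 were the higher ones on both alleles, with overlapping arrays. The fold was 1.06 in Q20 mice (0.933 to 1.21) and 1.02 in Q111 mice (0.896 to 1.16), with limma adjusted p = 0.998 and 1.

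**Figure D2:**
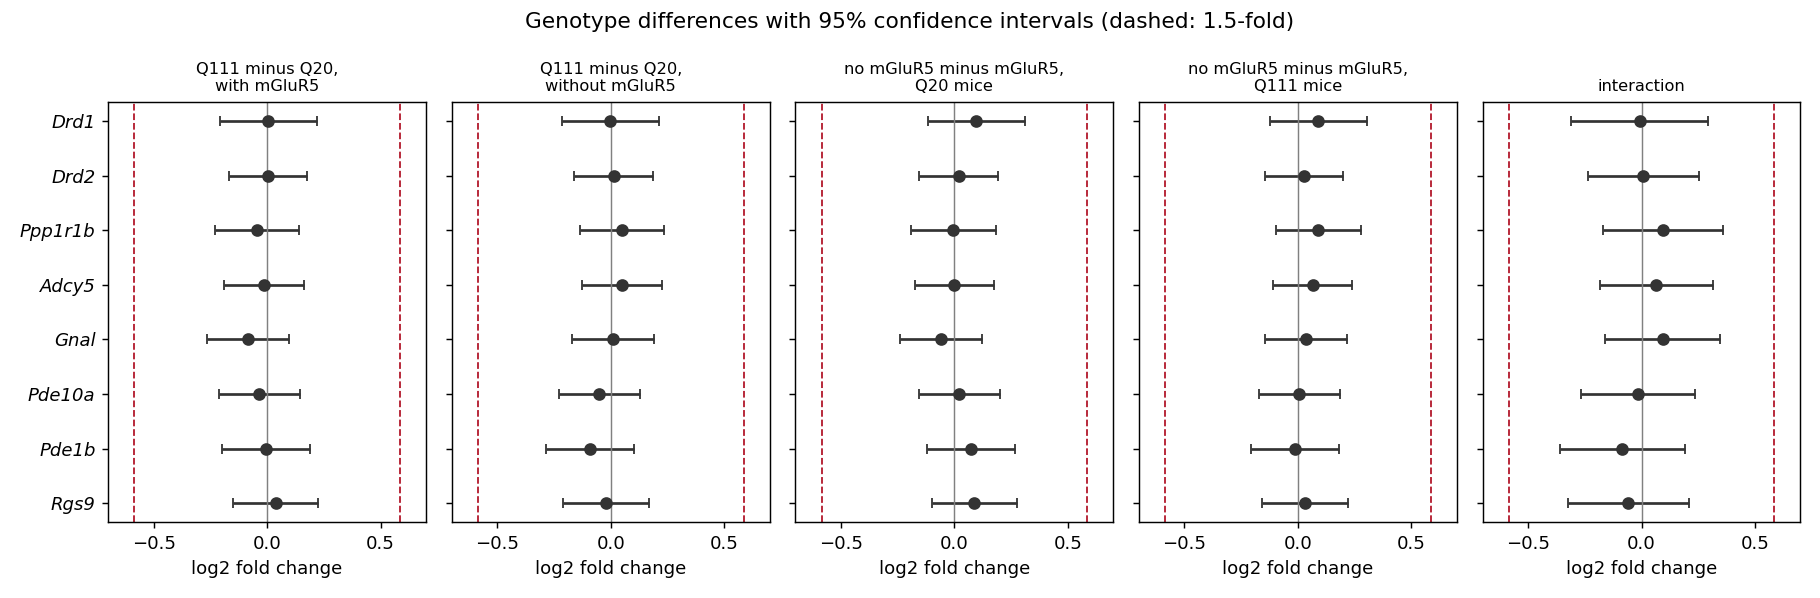
Log2 fold changes (points, horizontal axis) with 95% confidence intervals (bars) of the 8 genes in the 4 simple comparisons and the interaction, with dashed lines at a 1.5-fold change. All intervals span 0 and none reaches a dashed line.

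As a set, the genes had small median changes, given here beside those of all tested genes. Of the 16721 tested genes, 7675 were positive for Q111 against Q20 mice with mGluR5 and 7240 without it. For absence of mGluR5, 9530 were positive in Q20 mice and 8803 in Q111 mice. The number was 7765 in the interaction, 7262 in the average effect of Q111 and 9539 in that of mGluR5 loss. For Q111 against Q20 mice with mGluR5, 3 of 8 were positive, with a median log2 fold change of -0.01 (all tested genes -0.01). Of all tested genes 0.574% were called there and 6.84% had an unadjusted p below 0.05, against 0 of 8 for both. Without mGluR5, 4 of 8 were positive, with a median of 0.0039 (all tested genes -0.02). There 0.885% of all tested genes were called and 9.44% had an unadjusted p below 0.05. For absence of mGluR5 in Q20 mice 6 of 8 were positive, with a median of 0.02 (all tested genes 0.02), where 0.299% of all tested genes were called, 6.02% had an unadjusted p below 0.05 and 12.8% had groups that did not overlap. In Q111 mice 7 of 8 were positive, with a median of 0.03 (all tested genes 0.01), and these shares were 0.275%, 4.36% and 7.46%. That median was 0.0053 without replicate 1 and 0.064 without replicate 3 of the Q111 mice lacking mGluR5. With single arrays left out, the median lay between 0.015 and 0.036 for absence of mGluR5 in Q20 mice, between -0.04 and -0.0062 for Q111 against Q20 mice with mGluR5, and between -0.04 and 0.02 without mGluR5. In both comparisons of mGluR5 absence, 0 of 8 genes had groups that did not overlap. The comparisons share arrays, since each group enters more than 1 of them. In the interaction 4 of 8 were positive, with a median of 0.00033 (all tested genes -0.01). There 0.437% of all tested genes were called and 5.37% had an unadjusted p below 0.05. In the average effect of Q111, 5 of 8 were positive, with a median of 0.0021 (all tested genes -0.02). There 1.32% of all tested genes were called, 11.4% had an unadjusted p below 0.05 and 1.21% did not overlap. In the average effect of mGluR5 loss 7 of 8 were positive, with a median of 0.03 (all tested genes 0.01). These shares were 0.293%, 5.32% and 0.305% there, with 0 of 8 genes in each.

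The pooled within-group SD of the 8 RNAs lay between 0.05 (Drd2) and 0.11 (Drd1) log2 units. Among the tested genes these SDs ranked between the lowest 0.754% (Drd2) and the lowest 27.8% (Drd1). The standard errors of limma, which draws each gene's spread toward that of all genes, were 0.08 to 0.10 in the simple comparisons.

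The width of each array was then set against the level of each gene on it. Over the 12 arrays Drd1 had a Pearson r of -0.68 and a Spearman rho of -0.62 with the interquartile range (two-sided permutation p = 0.0159 and 0.0354, adjusted over the 8 genes p = 0.0636 and 0.142). Pde1b had a Pearson r of 0.685 and a rho of 0.685 (permutation p = 0.0135 and 0.016, adjusted p = 0.0636 and 0.128). Ppp1r1b had r = 0.58 and rho = 0.52 (permutation p = 0.0487 and 0.0907, adjusted p = 0.13 and 0.242). None of the 8 genes passed after adjustment, and the other five lay between -0.45 and 0.31. Leaving out the 2 arrays whose range was farthest from the median gave r = -0.87 for Drd1, 0.59 for Pde1b and 0.34 for Ppp1r1b, so that the last rests in part on those arrays. With each value taken as its deviation from the group mean, r was -0.87 for Drd1 (permutation adjusted p = 0.0012), 0.70 for Ppp1r1b (adjusted p = 0.0411) and 0.66 for Pde1b (adjusted p = 0.0502). By rank only Drd1 passed there, with rho = -0.86 (permutation adjusted p = 0.00584), while Ppp1r1b and Pde1b both had rho = 0.53 (adjusted p = 0.214). For all tested genes r before group means were removed had a median of 0.24, and 80% lay between -0.76 and 0.79. No such background is given for the deviations. Their permutation moved values freely over the 12 arrays although group means had been removed, so these p-values may be too small. With the interquartile range as a covariate, the average effect of mGluR5 loss on Drd1 was 0.11 log2 units with an unadjusted p = 0.0433 (limma adjusted p = 0.394). The mean range was 2.74 ± 0.07 in Q111 mice without mGluR5, 2.73 ± 0.19 in Q111 mice with it, 2.83 ± 0.12 in Q20 mice without mGluR5 and 2.80 ± 0.08 in Q20 mice with it (SD, n = 3 each).

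**Figure D3:**
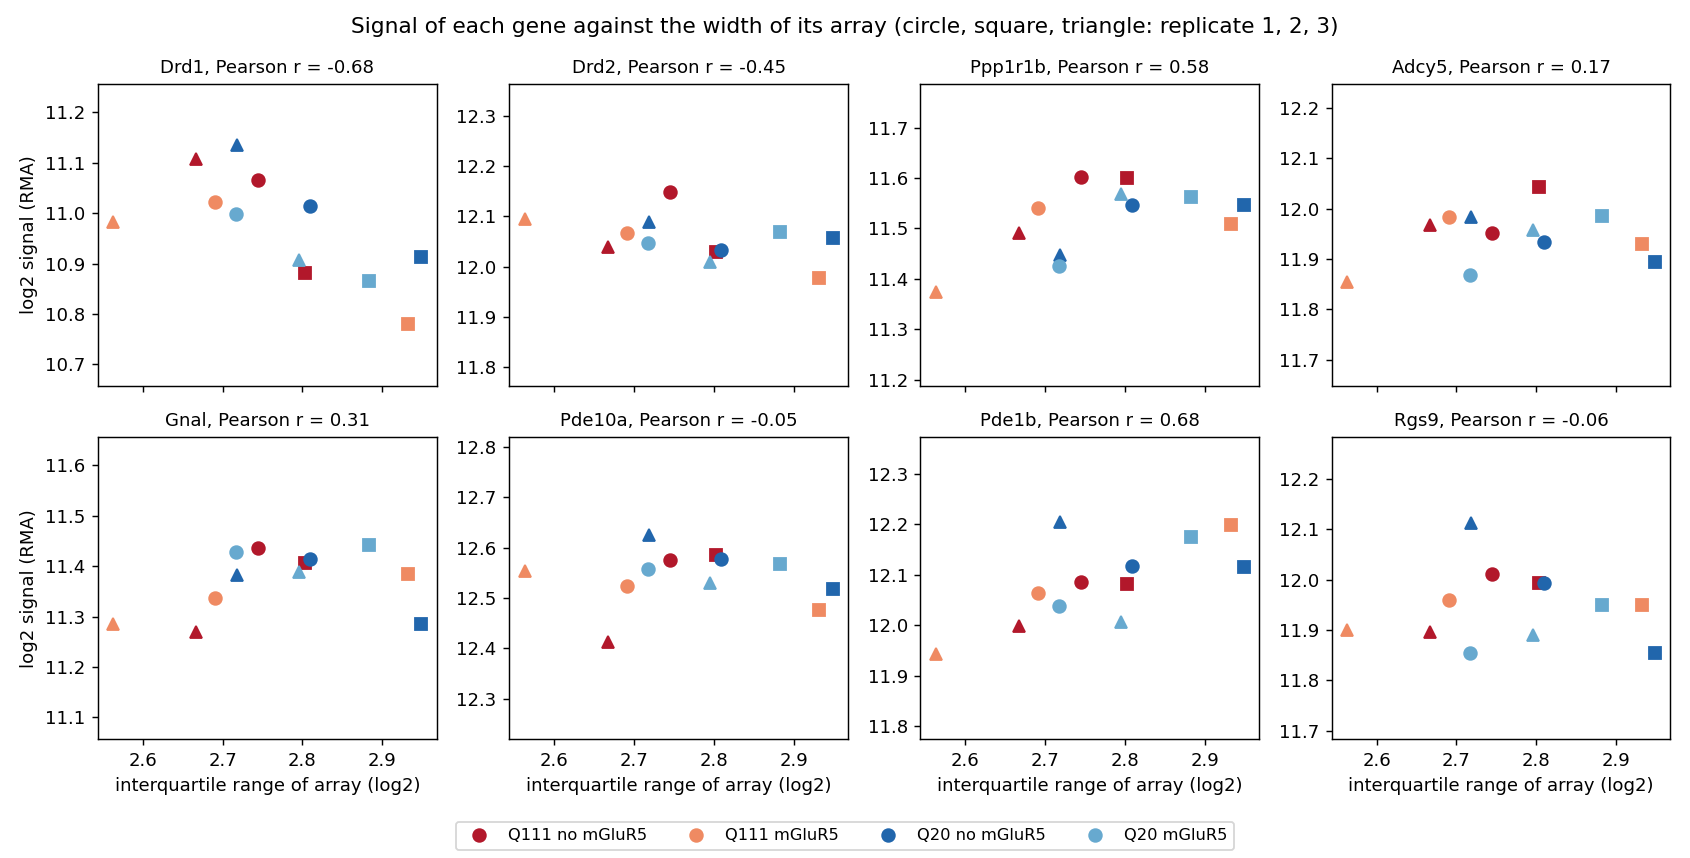
Log2 signal of each gene (vertical axis) against the interquartile range of its array (horizontal axis, log2 units), with colour for the group and circles, squares and triangles for replicates 1, 2 and 3. Drd1 tends to be lower on wide arrays (r = -0.68) and Pde1b higher (r = 0.685), neither passing adjustment, while Pde10a and Rgs9 have r of -0.05 and -0.06.

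By likeness over the 12 arrays, the genes nearest to Drd1 were Acap1, Col6a5 and Sec61b (Pearson r = 0.950, 0.946 and 0.942), the highest of 15295 genes ranked. Nearest to Drd2 were H1f7, Chtf18 and Hspb9 (r = 0.876, 0.851 and 0.834). All 6 had a negative r with the interquartile range themselves, between -0.48 and -0.77, as Drd1 and Drd2 did. Among the genes of the set, taken as deviations from group means over the 12 arrays, r was 0.72 between Gnal and Rgs9, 0.68 between Pde10a and Rgs9 and 0.66 between Gnal and Pde10a. These were the highest of all pairs in the set, picked with the values in view. Before group means were removed they stood at 0.40, 0.59 and 0.59. As deviations, r was 0.57 between Drd1 and Drd2 (0.60 before) and -0.55 between Drd1 and Ppp1r1b (-0.30 before). No background from pairs of other genes is given. These values describe 12 arrays that share the differences in width, and the part of width in them was not tested.

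The rest of the pathway was read from 8 lists by role, with 118 of 129 genes tested. They hold other dopamine, adenosine and striatal receptors (13 tested), G protein subunits (15), the remaining adenylyl cyclases (8), the remaining phosphodiesterases (16), protein kinase A and other cAMP effectors (16), phosphatases and their regulators (19), further RGS proteins and receptor regulators (19), and genes of adenosine and dopamine handling (12). In Q111 against Q20 mice with mGluR5, 1 of the 118 passed, a rise, where 0.574% of all tested genes were called. There 2 (1.69%) had an unadjusted limma p below 0.05, against 6.84% of all tested genes. Without mGluR5 none passed (all tested genes 0.885%) and 8 (6.78%) had an unadjusted p below 0.05, against 9.44%. For absence of mGluR5 none passed in Q20 or in Q111 mice (all tested genes 0.299% and 0.275%). At an unadjusted p below 0.05 were 5 (4.24%) and 2 (1.69%), against 6.02% and 4.36%. None passed in the interaction (all tested genes 0.437%), with 4 (3.39%) at an unadjusted p below 0.05, against 5.37%. In the average effect of Q111 1 of 118 passed, again a rise (all tested genes 1.32%), with 9 (7.63%) at an unadjusted p below 0.05, against 11.4%. In that of mGluR5 loss 0 passed (all tested genes 0.293%), with 4 (3.39%), against 5.32%. Of the 118, 44 were positive in Q111 against Q20 mice with mGluR5 (median -0.02, all tested genes -0.01) and 37 without it (median -0.06, all tested genes -0.02). In the absence of mGluR5, 72 were positive in Q20 mice (median 0.05, all tested genes 0.02) and 54 in Q111 mice (median -0.01, all tested genes 0.01). Of the 16721 tested genes, 7675, 7240, 9530 and 8803 were positive in these 4 comparisons, in the same order. Each group enters a pair of these comparisons.

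Both calls were of Adcy1, a cyclase activated by calcium and calmodulin. It read 9.67, 9.63 and 9.53 in Q111 mice without mGluR5 and 9.69, 9.76 and 9.64 in Q111 mice with it. Among Q20 mice the values were 9.51, 9.59 and 9.59 without mGluR5 and 9.27, 9.23 and 9.03 with it. Q20 mice with mGluR5 lay below the 3 other groups without overlap. With mGluR5 present, Adcy1 was higher in Q111 than in Q20 mice by 0.52 ± 0.09 log2 units (SE), a fold of 1.43 (interval 1.25 to 1.64, limma adjusted p = 0.0138). Over 20 alternative fits the adjusted p lay between 0.00224 and 0.116, and the call was lost without replicate 1 of the Q111 or replicate 3 of the Q20 mice with mGluR5, and with the compared groups fitted alone. It was also lost under the authors' criteria, since the fold is below 1.5. In Q20 mice Adcy1 stood at 0.39 ± 0.09 on loss of mGluR5 (limma adjusted p = 0.101), which passed in 2 of 20 alternative fits, with the replicate number as a block (adjusted p = 0.0412) and with the array width as a covariate (adjusted p = 0.0237). The interaction stood at -0.47 ± 0.13 (limma adjusted p = 0.255). Without mGluR5, Adcy1 differed between Q111 and Q20 mice by only 0.05 log2 units (limma adjusted p = 0.924) and was called in 0 of 20 alternative fits. Taken over both mGluR5 genotypes, the average effect of the allele was 0.28 ± 0.06 (limma adjusted p = 0.0428). That call was lost in 13 of 19 alternative fits (adjusted p 0.0107 to 0.141) and under the authors' criteria. With a mixed background, alleles of the parental strains and the engineered genotypes cannot be told apart. Adcy5 stood at -0.01 ± 0.08 in the comparison where Adcy1 rose. In that comparison the mean level of 8 thalamus and septum markers was 7.31 to 7.47 in Q111 mice against 7.48 to 7.80 in Q20 mice, without overlap, and that of 7 cortical markers was 6.78 to 7.06 in Q111 mice against 6.73 to 6.95 in Q20 mice. The part of these levels in the Adcy1 difference was not tested.

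The pathway genes with the smallest p in the other comparisons did not pass. Rgs4, a regulator of inhibitory and Gq proteins, stood at -0.41 ± 0.10 log2 units in Q111 against Q20 mice without mGluR5 (limma adjusted p = 0.076), with 10.94, 10.95 and 10.94 in Q111 mice against 11.34, 11.41 and 11.31 in Q20 mice. Its 3 Q111 arrays lay below its 3 Q20 arrays there. Groups did not overlap in that comparison for 23 of the 118 pathway genes, 21 of them lower in Q111 mice. Of all tested genes 3192 (19.1%) did not overlap, 2177 of them lower in Q111 mice. The mean levels of the striatal, vascular, microglia and choroid plexus marker lists were lower there too, though some striatal, microglia and choroid plexus markers were higher. The part of these levels in the Rgs4 difference was not tested. The serotonin receptor Htr6 stood at -0.24 ± 0.10 on loss of mGluR5 in Q111 mice (limma adjusted p = 0.93). Nt5e, which makes extracellular adenosine from AMP, stood at 0.23 ± 0.08 on loss of mGluR5 on average (limma adjusted p = 0.49). By list, adenosine and dopamine handling had 9 of 12 positive with a median of 0.14 in that comparison, where all tested genes had a median of 0.01, and none of its genes was called. G protein subunits had 14 of 15 positive on loss of mGluR5 in Q20 mice (median 0.06) and 4 of 15 in Q111 mice (median -0.04). On average 8 of 15 were positive (median 0.01), and none was called. Of the 16721 tested genes, 9530 were positive on loss of mGluR5 in Q20 mice (median 0.02) and 8803 in Q111 mice (median 0.01). On average 9539 were positive (median 0.01). Both lists were picked for description among 8 lists in 7 comparisons with their values in view.

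**Figure D4:**
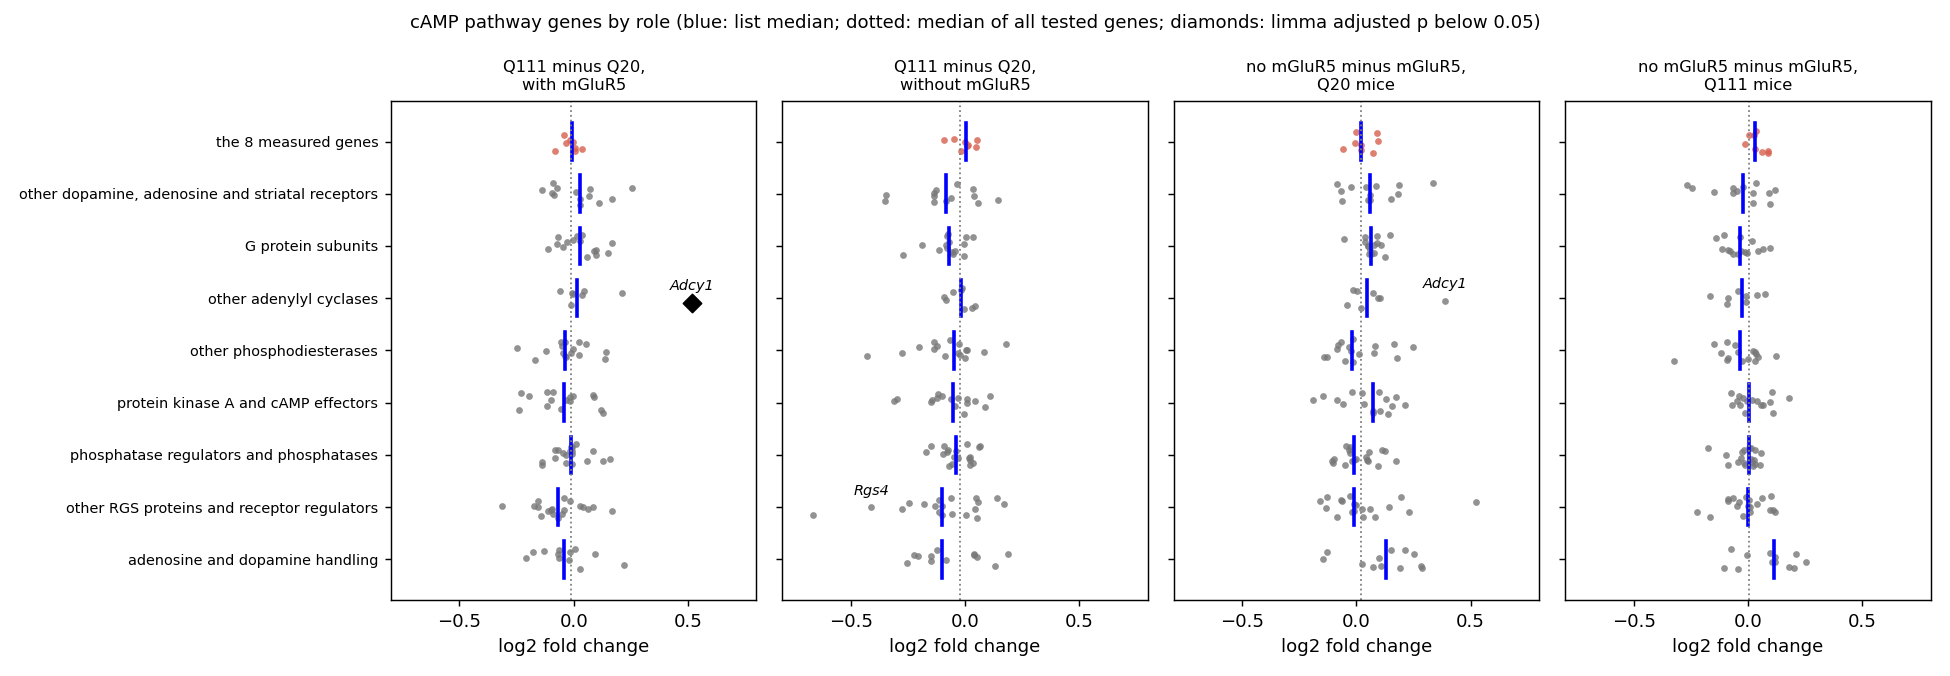
Log2 fold changes (horizontal axis) of the 8 genes (red, top row) and of 118 further pathway genes by role (grey rows) in the 4 simple comparisons, with blue bars for list medians, a dotted line for the median of all tested genes and black diamonds for genes with limma adjusted p below 0.05. Adcy1 in the first panel is the only diamond, and the 8 genes lie between -0.09 and 0.10 in all 4 panels.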

How the data were processed

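The deposited values are log2 signals per probe set, for which the submitters' processing notes name RMA and Partek and the series text names Partek Genomics Suite 6.5, with a genotype effect there taken at ANOVA p under 0.05 with a 1.5-fold change. Of 35556 probe sets, 21789 had 1 gene symbol in the platform annotation, 1621 several and 12146 none. Symbols were updated through Entrez numbers to RefSeq (GRCm38.p6), and the set with the highest mean stood for each of 19938 genes. Those above the 25th percentile of their array on at least 3 arrays were tested (16721).

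In R 4.3.3, limma 3.58.1 fitted 1 mean per group over all 12 arrays (8 residual degrees of freedom, prior 6.88), two-sided, with p-values adjusted by Benjamini-Hochberg across the tested genes. Calls needed an adjusted p under 0.05, and intervals are at 95%. The fit was tested on simulated data. The genes described, the pathway lists and the tests were chosen with earlier results of these data known. Named genes were the measured genes of the set, Grm5 and Htt, per comparison the pathway gene with the smallest p and any called one, and the 3 genes most like Drd1 and Drd2, leaving out predicted, olfactory and vomeronasal receptor and small RNA genes. Correlations used 100000 permutations, adjusted over the 8 measured genes. Arrays give no counts, so their number sets the precision. Alternatives covered the test, call rule, samples, replicate block, normalization, filter, probe set, array width and each array left out. Plots used matplotlib 3.10.9.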

Additional observations from a re-analysis of the deposited data

How the results depend on the processing

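In each of the 7 comparisons, 0 of the 8 genes were called under any alternative run, namely an ordinary linear model, the compared groups alone (4 simple comparisons), the replicate number as a block, quantile normalization, median centring, no filter, the mean of all probe sets, the interquartile range as a covariate, the authors' criteria, and each of 12 arrays left out in turn (0 to 0). The lowest adjusted p of any of the 8 genes under any alternative was 0.394. With the replicate number as a block the count was likewise 0. Deviations of same-numbered arrays correlated above 0.1 in 11 of 18 pairs (median r 0.28), against 7 of 36 pairs with different numbers (median r -0.08). Deviations within a group sum to 0, so these medians are not independent of each other, and each array enters several pairs. The main fit left the replicate number out, and what same-numbered arrays share was not tested. Genes following the array width numbered 0 by Pearson r, but 2 as deviations from group means (only Drd1 by rank), 3 with median centring, and 0 to 1 with 1 array left out, where the 1 came on leaving out the third array of either Q111 mice with mGluR5 or Q20 mice lacking it. The cause was not tested, and no matching count over all tested genes is given. Called genes over the whole table numbered 46 to 221 over the 7 comparisons, against 19 to 123 with an ordinary linear model, 79 to 487 with the replicate number as a block, and 150 to 488 once array width entered the model. Omitting single arrays gave 25 to 511. With the compared groups alone, Q111 against Q20 mice gave 47 in place of 96 called genes with mGluR5 and 170 in place of 148 without it, and absence of mGluR5 gave 72 in place of 50 in Q20 mice and 33 in place of 46 in Q111 mice. Rgs4 without mGluR5 was called in 5 of 20 alternatives (adjusted p 0.0185 to 0.276). In the average effect of Q111, 4 of the 118 pathway genes in place of 1 were called with the replicate number as a block. Another run with 4 left out replicate 2 of the Q111 mice with mGluR5. Over the whole table these runs called 487 and 511 genes. In the interaction 1 pathway gene, neither Adcy1 nor Rgs4, was called with array width as a covariate, where 153 genes were called in all. With 3 arrays per group, the intervals of the simple comparisons reached 0.821-fold and 1.24-fold.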
